A study of Mus musculus with 9 samples.

Results

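Of the 6 liver libraries taken through constant darkness (DD), the one collected at circadian time (CT) 5 stood out for 177 genes, 79 with their highest and 98 with their lowest level of the 6 there. A gene was taken when its level at CT5 lay at least 2-fold from the median of CT1, CT9, CT13, CT17 and CT21, among the 11571 genes with 100 or more counts in at least 1 of these 6 libraries (20418 genes were named in all). The genes highest at CT5 were led by Rgs16 and included transcripts of the clock's negative limb and its outputs, Dbp, Bhlhe41, Nr1d1 and Nr1d2. Those lowest at CT5 were led by Arntl, the gene of BMAL1, and included Cry1, Nfil3, 6 genes of endoplasmic reticulum (ER) protein folding and 4 cytosolic heat shock genes. Levels are given as TMM-scaled CPM (counts per 1000000 counts of the library); TMM sets libraries on one scale by the bulk of their genes. Differences are log2 ratios of CT5 to the median of the other 5, and a log2 ratio of 1 is 2-fold.

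All mice were male C57BL/6J. Those of the DD libraries spent 1 week under a light-dark cycle and then 6 weeks in DD before their livers were taken at CT1, CT5, CT9, CT13, CT17 or CT21. Another 3 libraries belonged to a feeding experiment: one from ad libitum fed animals, one from fasted animals whose food was withheld for 16 h between ZT9 and ZT1 (zeitgeber time, counted from lights on), and one from refed animals that ate again for 20 h following such a 16-h fast. Livers of one condition were pooled into 1 library, and neither the number of livers in a pool nor the harvest time of the ad libitum mice is given in the sources used here. For the refed mice it is given only as 20 h after the end of their 16-h fast. That fast ended at ZT1 if it ran over the same hours as in the fasted mice. With 1 library per condition, the time, the pool and the library cannot be told apart, no test between times was possible and no p-value is given. The intervals beside ratios are exact 95% intervals that cover counting error only. In whole liver, fewer cells of a type and less RNA per cell cannot be told apart.

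In the mammalian clock, BMAL1 and CLOCK bind E-boxes and switch on the Per, Cry, Nr1d and Bhlhe genes as well as outputs such as Dbp. The PER and CRY proteins then block this activation, and the REV-ERB receptors encoded by Nr1d1 and Nr1d2 repress Arntl, Nfil3 and Cry1 through ROR elements. DBP activates, and NFIL3 represses, genes with D-box sequences. Liver cells also secrete large amounts of protein, and the chaperones of their ER are raised together when unfolded proteins gather there, through ER stress elements (ERSE) in the promoters. Cytosolic heat shock genes are controlled by HSF1, which binds repeated GAA and TTC units.

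Promoter sequence was at hand for 137 of the 177 genes and for 9323 of the 11571, from RefSeq (GRCm38.p6), as 250 bases before to 50 after the annotated start. The 250 bases before the start are printed for 7 genes that the results turn on, each 5′ to 3′ on the gene's strand, with the motif match in capitals. Bhlhe41 (chr6:145865421-145865670, minus strand) and Cry1 (chr10:85185055-85185304, minus strand) show an E-box, CACGTG. Nfil3 (chr13:52981040-52981289, minus strand) shows a ROR element, TAGGTCA, on the other strand. Hspa5 (chr2:34771840-34772089, plus strand), Creld2 (chr15:88819396-88819645, plus strand; match on the other strand) and Syvn1 (chr19:6046326-6046575, plus strand) show an ERSE, CCAAT and CCACG with 9 bases between them. Hsph1 (chr5:149636337-149636586, minus strand) shows a pair of heat shock units, TTCNNGAA.
Bhlhe41: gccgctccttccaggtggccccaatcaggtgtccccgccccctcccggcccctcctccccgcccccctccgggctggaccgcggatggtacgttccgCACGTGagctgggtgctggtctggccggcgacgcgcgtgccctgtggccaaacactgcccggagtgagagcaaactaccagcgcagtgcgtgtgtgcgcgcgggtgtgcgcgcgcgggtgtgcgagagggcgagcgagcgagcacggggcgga
Cry1: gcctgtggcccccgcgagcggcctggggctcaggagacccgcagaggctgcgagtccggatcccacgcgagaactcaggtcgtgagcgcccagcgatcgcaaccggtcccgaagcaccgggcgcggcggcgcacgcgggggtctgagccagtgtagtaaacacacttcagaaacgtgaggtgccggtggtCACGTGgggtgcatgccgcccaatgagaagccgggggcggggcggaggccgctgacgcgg
Nfil3: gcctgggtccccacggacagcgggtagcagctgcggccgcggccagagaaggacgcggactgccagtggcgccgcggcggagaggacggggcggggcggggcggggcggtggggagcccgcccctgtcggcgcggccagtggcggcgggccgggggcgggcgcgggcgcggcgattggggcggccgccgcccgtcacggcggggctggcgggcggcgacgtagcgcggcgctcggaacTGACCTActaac
Hspa5: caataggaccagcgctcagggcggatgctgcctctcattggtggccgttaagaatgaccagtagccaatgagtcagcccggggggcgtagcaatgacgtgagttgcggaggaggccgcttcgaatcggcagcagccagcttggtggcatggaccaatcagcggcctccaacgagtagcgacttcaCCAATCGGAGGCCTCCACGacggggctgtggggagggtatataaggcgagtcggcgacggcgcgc
Creld2: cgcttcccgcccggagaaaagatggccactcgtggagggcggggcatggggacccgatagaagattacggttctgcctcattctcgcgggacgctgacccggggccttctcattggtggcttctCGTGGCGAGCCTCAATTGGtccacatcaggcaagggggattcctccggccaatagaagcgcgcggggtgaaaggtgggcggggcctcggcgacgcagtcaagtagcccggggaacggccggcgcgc
Syvn1: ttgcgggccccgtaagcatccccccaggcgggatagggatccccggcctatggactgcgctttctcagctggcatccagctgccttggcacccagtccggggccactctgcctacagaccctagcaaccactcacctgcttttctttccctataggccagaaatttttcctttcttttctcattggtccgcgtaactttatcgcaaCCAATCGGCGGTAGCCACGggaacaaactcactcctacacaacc
Hsph1: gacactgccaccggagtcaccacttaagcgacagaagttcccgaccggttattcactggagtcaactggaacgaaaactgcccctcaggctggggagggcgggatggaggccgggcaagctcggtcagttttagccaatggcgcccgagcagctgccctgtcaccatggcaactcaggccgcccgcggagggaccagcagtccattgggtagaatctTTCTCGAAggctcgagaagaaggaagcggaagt

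All motifs were searched on both strands of the whole 300-base windows. An ERSE was found in 4 of the 77 promoters of genes lowest at CT5 (5.19%), those of Hspa5, Creld2, Syvn1 and Acnat2, in 0 of the 60 of genes highest at CT5 and in 18 of 9323 in all (0.193%). This motif was added to the search after the levels had been seen. ROR elements were present in 4 of 77 (5.19%), 1 of 60 (1.67%) and 1.97% of the same sets, and E-boxes in 6 of 77 (7.79%), 10 of 60 (16.7%) and 10.4%. Heat shock pairs were present in 5 of 77 (6.49%), 0 of 60 and 6.76%, and the D-box core TTATGTAA in 0 of 77, 0 of 60 and 0.493%. Of the heat shock genes lowest at CT5, Hspb1 and Hspa4l had 0 such pairs, unlike Hsph1. The windows of Dbp, Nr1d1 and Arntl held no exact match to the E-box or ROR letters. A match is a description of these letters and not of a bound site. Every ERSE also holds a CCAAT box, which was present in 39% of all windows.

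The libraries held 43497102 to 59632116 counts, and the CT5 library 48288706. Hepatocyte markers were high in all of them, with a summed level of 77267 CPM at CT5 and 56318 to 101266 CPM at the other times in DD. Acute phase genes, which hepatocytes make in inflammation, took 17.2% of counts at CT1 and 16.7% at CT17, against 3.55% at CT5 and 2.86% to 4.16% at CT9, CT13 and CT21. Neutrophil markers moved with them, with a summed level of 65.7 CPM at CT1, 76.7 at CT17 and 3.90 to 10.1 in the other DD libraries (4 of the 13 markers passed the count minimum, and Camp was at 0 counts at CT5). CT1 and CT17 therefore stand apart from the other 4, and values without both are given where a named gene then lay under 2-fold or moved by over 1.5 times. Of the 79 highest genes 23 were under 2-fold without both, and of the 98 lowest 25, and 0 changed sign. Their part in the other results was not tested.

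The CT5 library did not hold more such genes than its neighbours. The 79 genes highest at CT5 were 0.683% of the 11571 and the 98 lowest were 0.847%. By the same rule CT1 gave 160 highest (1.38%) and 197 lowest (1.7%), CT9 gave 104 (0.899%) and 110 (0.951%), and CT13 gave 118 (1.02%) and 113 (0.977%). CT17 gave 236 highest (2.04%) and 93 lowest (0.804%), and CT21 gave 74 (0.64%) and 61 (0.527%). Whatever the fold, CT5 was the highest of the 6 for 13.4% of genes and the lowest for 13.8%.

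**Figure D1:**
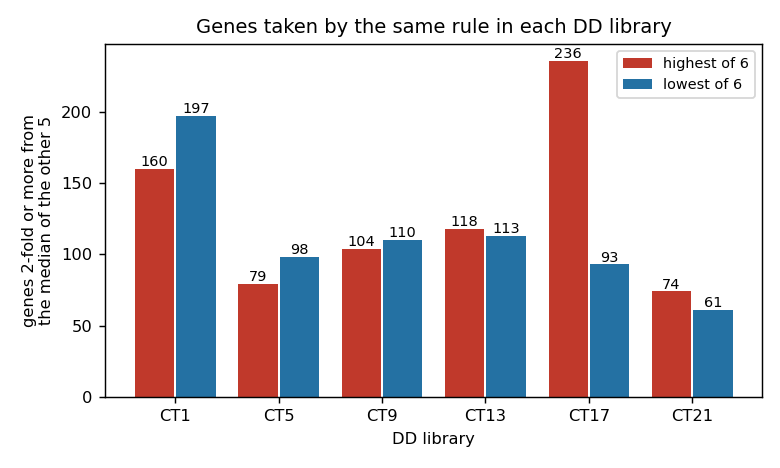
Number of genes with the highest (red) or lowest (blue) level of the 6 in each DD library and at least 2-fold from the median of the other 5, as bars from 0. CT5 held 79 and 98, fewer than CT1 (160 and 197), and CT17 held the most highest genes (236).

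Most of the 177 lay near the limit, and a few lay far out. The median log2 ratio was 1.22 for the genes highest at CT5 and -1.37 for those lowest, against 0.002 over all 11571 genes. Among the highest, 11 reached 4-fold, that is a log2 ratio of 2, and 4 reached a log2 ratio of 4. Among the lowest, 10 reached a log2 ratio of -2 and none -4. For 14 of the 79 and 17 of the 98, CT5 lay 2-fold or more even from the nearest of the other 5 libraries. The counting interval of the ratio to that nearest library excluded 0 for 71 of 79 and 73 of 98. The nearest library was CT9 for 29 of the 79 and 51 of the 98, CT21 for 21 and 15, CT13 for 16 and 6, CT1 for 8 and 20, and CT17 for 5 and 6. With scaling by total counts instead of TMM the split was 108 highest and 71 lowest, so that the share of highest genes was 60.3% instead of 44.6%, and which genes pass the limit depends on that choice, while no named member changed sign. Without CT1 and CT17 there were 92 and 116, of which 56 and 73 were also taken with all 6 libraries.

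**Figure D2:**
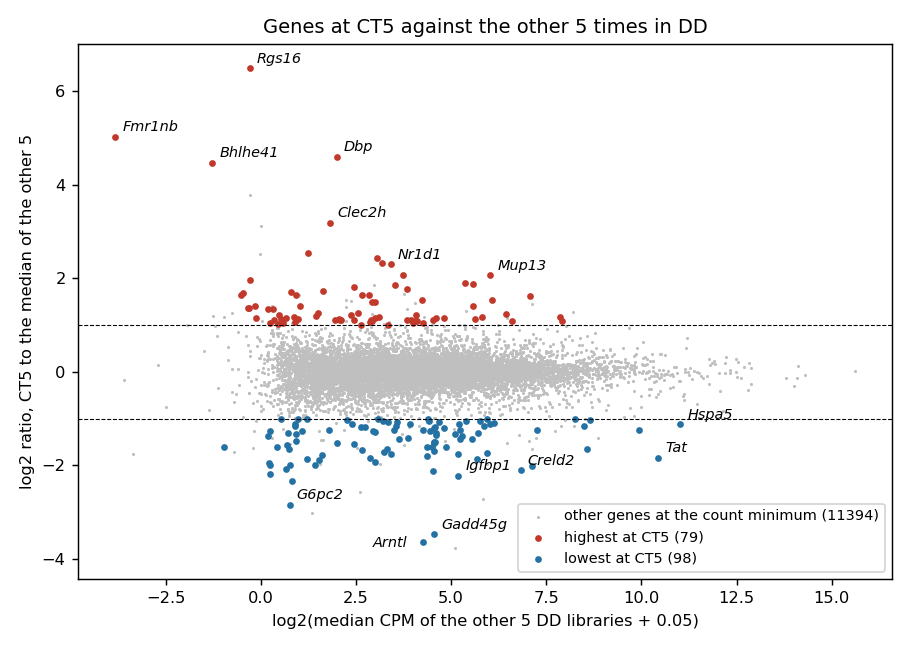
Log2 ratio of CT5 to the median of the other 5 DD libraries (vertical axis) against that median on the log2(CPM + 0.05) scale (horizontal axis), for the genes at the count minimum; dashed lines mark 2-fold. The 79 genes highest (red) and 98 lowest (blue) at CT5 lie outside the lines, and among them Rgs16 at 6.50 and Arntl at -3.64 are farthest out on each side; Fmr1nb is drawn with its library at 0 counts set at 3.

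The strongest peak at CT5 was that of Rgs16, which encodes a protein that shortens signalling by G protein-coupled receptors. Its level was 0.569 CPM at CT1, 68.95 CPM at CT5, 18.7 CPM at CT9, 0.764 CPM at CT13, 0.202 CPM at CT17 and 1.14 CPM at CT21. The gene was thus nearly silent at 4 of the 6 times, and at CT9 it was still well above those. The log2 ratio was 6.50 (counting interval 6.03 to 7.004) to the median and 1.88 (1.78 to 1.99) to CT9. Against the mean of the other 5 in place of their median, the log2 ratio was 4.01.

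Dbp, the PAR bZIP factor that carries the clock's signal to D-box genes, followed the same course. Its level was 1.52 CPM at CT1, 95.7 CPM at CT5, 37.7 CPM at CT9, 11.7 CPM at CT13, 3.94 CPM at CT17 and 2.598 CPM at CT21. Here the decline after CT5 was gradual, and CT1, CT17 and CT21 were the 3 low points. The log2 ratio was 4.60 (counting interval 4.40 to 4.82), and without CT1 and CT17 it was 3.03. Bhlhe41, the gene of the repressor DEC2, was expressed at a lower level on the same schedule, with 0.202 CPM at CT1, 8.09 CPM at CT5, 2.09 CPM at CT9, 0.9296 CPM at CT13, 0.363 CPM at CT17 and 0.241 CPM at CT21. Its log2 ratio was 4.48 (counting interval 3.80 to 5.25), and 3.12 without CT1 and CT17.

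Both REV-ERB genes peaked at CT5 as well. Nr1d1 had 10.6 CPM at CT1, 52.2 CPM at CT5, 15.6 CPM at CT9, 3.41 CPM at CT13, 1.21 CPM at CT17 and 17.7 CPM at CT21. The lowest point was CT17, the level was up again at CT21, and at CT1 it was lower than at CT21. Its log2 ratio was 2.31 (counting interval 2.17 to 2.44) to the median and 1.56 (1.46 to 1.66) to CT21. The paralog Nr1d2 had a broader and shallower peak, with 41.1 CPM at CT1, 154 CPM at CT5, 108 CPM at CT9, 74.5 CPM at CT13, 39.4 CPM at CT17 and 35.00 CPM at CT21. The log2 ratio of Nr1d2 was 1.91 (counting interval 1.84 to 1.97), and 1.05 without CT1 and CT17. Dbp shares exon sequence with Sphk2 and Nr1d1 with Thra on the opposite strand, and since the use of strand in counting is not given, reads of such partners cannot be told apart.

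Arntl, the gene of BMAL1, the clock's activator, had its trough at CT5. Its level was 19.6 CPM at CT1, 1.54 CPM at CT5, 3.84 CPM at CT9, 12.3 CPM at CT13, 19.1 CPM at CT17 and 34.2 CPM at CT21. Each time from CT9 to CT21 was higher than the one before it, and CT21 was the peak. The log2 ratio was -3.64 (counting interval -3.98 to -3.31), -1.32 (-1.72 to -0.94) to the nearest library, CT9, and -3.002 without CT1 and CT17. Nfil3, the bZIP repressor that opposes DBP, also peaked at CT21, with 39.9 CPM at CT1, 10.7 CPM at CT5, 18.1 CPM at CT9, 27.02 CPM at CT13, 36.2 CPM at CT17 and 54.02 CPM at CT21. Its log2 ratio was -1.76 (counting interval -1.90 to -1.63).

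Cry1, whose protein represses BMAL1 and CLOCK, was low at both CT1 and CT5. Its level was 6.87 CPM at CT1, 5.92 CPM at CT5, 17.3 CPM at CT9, 29.9 CPM at CT13, 25.3 CPM at CT17 and 20.7 CPM at CT21. The log2 ratio to the median was -1.80 (counting interval -1.99 to -1.62), but that to CT1 was -0.21 (-0.44 to 0.01) and its interval includes 0. Lonrf3, a RING finger gene from the list of clock outputs, had 7.37 CPM at CT1, 5.22 CPM at CT5, 22.4 CPM at CT9, 31.1 CPM at CT13, 25.4 CPM at CT17 and 22.9 CPM at CT21. Like Cry1 it was higher from CT9 on, with a log2 ratio of -2.13 (counting interval -2.32 to -1.95).

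**Figure D3:**
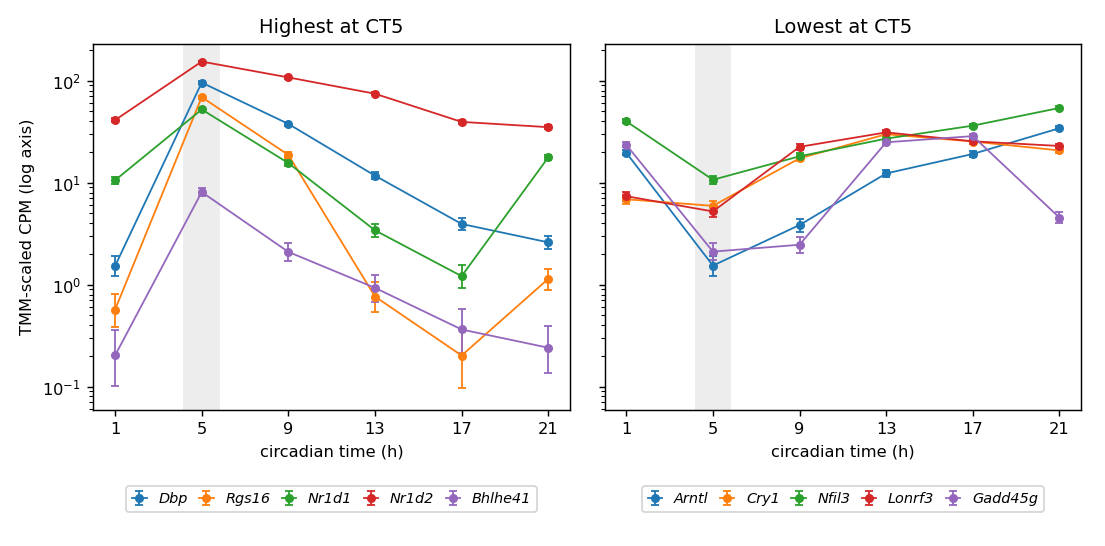
TMM-scaled CPM (log axis) of 5 genes highest (left) and 5 lowest (right) at CT5 against circadian time, 1 library per point, with exact 95% Poisson intervals that cover counting error only. On the left every gene peaks at CT5 (shaded), from 8.09 CPM for Bhlhe41 to 154 for Nr1d2, and on the right each has its trough there.

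Of the 20 core clock genes on the list used here, all passed the count minimum. Of these, 3 were among the genes highest at CT5 (0.683% of all genes) and 2 among the lowest (0.847%). The median log2 ratio was 0.22. Others of the list placed CT5 in the order of the cycle. Per1 had 2.17 CPM at CT1, 12.3 CPM at CT5, 23.4 CPM at CT9, 10.4 CPM at CT13, 4.703 CPM at CT17 and 1.14 CPM at CT21, Per2 had 6.01 CPM at CT1, 23.6 CPM at CT5, 66.00 CPM at CT9, 57.5 CPM at CT13, 13.3 CPM at CT17 and 9.13 CPM at CT21, and Per3 had 1.93 CPM at CT1, 42.7 CPM at CT5, 63.1 CPM at CT9, 41.9 CPM at CT13, 13.4 CPM at CT17 and 2.89 CPM at CT21. All 3 Period genes were thus highest at CT9, 1 time point after Nr1d1 and Dbp. Cry2 (29.9 CPM at CT5 and 38.3 at CT9) and Ciart (10.5 and 14.1), a repressor of BMAL1 and CLOCK, also had their highest level at CT9. Npas2, a CLOCK paralog, ran from 0.103 CPM at CT13 to 4.88 at CT21 and stood at 0.171 at CT5. Bhlhe40 was level between CT5 (135 CPM) and CT9 (130.2 CPM). Clock, Csnk1d, Csnk1e, Fbxl21, Rora and Timeless had log2 ratios of -0.34, 0.11, -0.06, 0.29, -0.21 and -0.28. In textbook accounts of mouse liver, Nr1d1 and Dbp come before the Period genes, Cry1 after them, and Arntl and Npas2 last. The peaks of these genes at CT5, CT9, CT13 and CT21 gave that order. Nr1d1 and Dbp were taken for their peak at CT5, so their place is no separate result. Arntl and Cry1 were taken for their low level at CT5, so their place is not free of the rule either. The Period genes and Npas2 were not taken by the rule. None of these genes peaked at CT1 or CT17, so this order says nothing of those labels.

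Among the 17 PAR bZIP and clock output genes at the count minimum, 1 was highest (Dbp) and 3 were lowest (Nfil3, Lonrf3 and Cdkn1a) at CT5. The shares of all genes were 0.683% and 0.847%, and the median log2 ratio of the list was 0.36. The paralogs of Dbp peaked later. Tef had 197 CPM at CT5 and 218 at CT9, and Hlf 27.9 and 45.1. Usp2, a deubiquitinase, Wee1, a cell cycle kinase, Noct, Por and Upp2 likewise had their highest level at CT9. Alas1, the first enzyme of heme synthesis, was nearly equal at CT5 (714 CPM) and CT13 (748 CPM), and Ces3a at CT5 (2033 CPM) and CT21 (2048 CPM). Without CT1 and CT17 the median of this list was -0.31.

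Several of the other large peaks at CT5 belonged to metabolic and signalling genes. Pfkfb3, which makes the activator of glycolysis fructose-2,6-bisphosphate, had 8.25 CPM at CT1, 44.3 CPM at CT5, 20.2 CPM at CT9, 18.2 CPM at CT13, 6.88 CPM at CT17 and 6.19 CPM at CT21. Its log2 ratio was 2.42 (counting interval 2.28 to 2.57), and 1.28 without CT1 and CT17. Hsd17b6, a hydroxysteroid dehydrogenase, had 15.4 CPM at CT1, 175 CPM at CT5, 86.8 CPM at CT9, 107 CPM at CT13, 47.7 CPM at CT17 and 41.1 CPM at CT21, with a log2 ratio of 1.88 (counting interval 1.81 to 1.94) that was 1.02 without those 2 libraries. Clec2h, a C-type lectin, had 3.47 CPM at CT1, 31.7 CPM at CT5, 3.37 CPM at CT9, 8.96 CPM at CT13, 1.39 CPM at CT17 and 6.01 CPM at CT21. No other library came near the level of Clec2h at CT5, and the log2 ratio was 3.19 (counting interval 2.98 to 3.42), and 2.40 without CT1 and CT17.

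Socs2, which dampens growth hormone signalling, had 13.3 CPM at CT1, 56.1 CPM at CT5, 8.87 CPM at CT9, 28.7 CPM at CT13, 35.1 CPM at CT17 and 6.01 CPM at CT21. It was the only 1 of the 12 growth hormone and IGF axis genes that was highest at CT5, with a log2 ratio of 2.08 (counting interval 1.96 to 2.20); without CT9 or without CT21 this was 1.42. Igfbp1, of the same list, was lowest at CT5. Mup13, of the male-biased major urinary protein family, had 25.4 CPM at CT1, 273 CPM at CT5, 98.5 CPM at CT9, 87.6 CPM at CT13, 40.2 CPM at CT17 and 65.2 CPM at CT21. Its log2 ratio was 2.07 (counting interval 2.02 to 2.12), but this family's genes are near-identical and its counts are uncertain. Hsd3b5, a steroid dehydrogenase of male liver, was the only 1 of 23 sex-biased genes that was taken, with 244 CPM at CT1, 527 CPM at CT5, 184 CPM at CT9, 233 CPM at CT13, 169 CPM at CT17 and 410.4 CPM at CT21 and a log2 ratio of 1.18.

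Gbp11, Gbp10 and Gbp2b, of the guanylate-binding GTPases that interferon induces, were all highest at CT5. Gbp11 had 8.69 CPM at CT1, 45.4 CPM at CT5, 4.62 CPM at CT9, 26.2 CPM at CT13, 9.38 CPM at CT17 and 9.03 CPM at CT21. CT13 was the only time near it, and the log2 ratio was 2.33 (counting interval 2.20 to 2.46). Gbp10 had 22.1 CPM at CT5, 19.6 at CT21 and 4.097 to 7.79 at the other 4 times, and its log2 ratio was 1.65. Gbp2b had 10.2 CPM at CT5 and 1.89 to 6.06 elsewhere (log2 ratio 1.73, and 1.105 without CT1 and CT17). Gbp10 and Gbp2b were named after their values were seen. These genes are close paralogs, and Gbp10 and Gbp11 lie within 100 kb of each other on chromosome 5, so the split of reads between them is uncertain. Of the 41 interferon-stimulated genes on a separate list none was taken in either direction, and their median log2 ratio was -0.07.

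Further genes peaked at CT5, several of them with low counts. Fmr1nb had 104 counts at CT5 and 38 at CT9, against 9 counts at CT21, 1 each at CT1 and CT13, and 0 at CT17. The median of the other times thus rests on no more than the 3 counts at which a library at 0 was set. Without CT1 and CT17 the log2 ratio was 3.77, and the log2 ratio to CT9 was 1.27 (0.72 to 1.84). Lpar2, a receptor for lysophosphatidic acid, had 2.98 CPM at CT5 and 0.513 to 1.06 at the other times, with a log2 ratio of 1.96 (counting interval 1.44 to 2.52). Maff, a small MAF factor, had 5.26 CPM against 1.06 to 2.35 (log2 ratio 1.41), and 3110082I17Rik 18.9 against 4.17 to 7.47 (1.81). Each of these was also 2-fold or more above its nearest library. Adgrf1, an adhesion receptor, had 41.6 CPM against 7.25 to 24.1, with a log2 ratio of 1.86 that was 1.17 without CT1 and CT17. Pcsk4, a proprotein convertase, was high at CT5, CT9 and CT13 alike, with 1.75 CPM at CT1, 13.6 CPM at CT5, 12.4 CPM at CT9, 10.1 CPM at CT13, 2.32 CPM at CT17 and 2.31 CPM at CT21. Its log2 ratio of 2.55 was 0.43 without CT1 and CT17 and 1.13 without CT1, CT17 or CT21 alone.

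ER chaperone genes were low together at CT5. Of the 23 genes of ER protein folding and the unfolded protein response, all passed the count minimum, 0 were highest and 6 lowest at CT5 by the rule, and 17 had their lowest level of the 6 there whatever the fold. The background was 0.847% of genes for the rule and 13.8% for the lowest rank. The median log2 ratio of the 23 was -0.69, and -0.59 without CT1 and CT17, where 4 of the 23 were lowest by the rule. Their summed level was 5567 CPM at CT5, 6777 CPM at CT9, 8279 CPM at CT13, 8476 CPM at CT17, 9384 CPM at CT21 and 12032 CPM at CT1. The sum was thus lowest at CT5 and higher at each later time through CT1, and 15 of the 23 genes had their highest level at CT1, as did 11.6% of all genes.

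Hspa5, the gene of BiP, the main ER chaperone, had 2843 CPM at CT1, 959.7 CPM at CT5, 1287 CPM at CT9, 2081 CPM at CT13, 1894 CPM at CT17 and 2486 CPM at CT21, and its log2 ratio was -1.12 (counting interval -1.13 to -1.10). Creld2, an ER protein of the same response, had the widest range, with 190.5 CPM at CT1, 26.2 CPM at CT5, 48.5 CPM at CT9, 113 CPM at CT13, 89.4 CPM at CT17 and 122 CPM at CT21 and a log2 ratio of -2.11 (counting interval -2.20 to -2.03). Manf, a secreted ER stress factor, had 202 CPM at CT1, 64.2 CPM at CT5, 87.9 CPM at CT9, 128 CPM at CT13, 152 CPM at CT17 and 179.6 CPM at CT21 (log2 ratio -1.24). CT9 was the nearest library for all 3. Hyou1, an ER chaperone that helps BiP release nucleotide, had 197 CPM against 306 to 618 elsewhere (log2 ratio -1.03). Sdf2l1, a BiP partner, had 32.5 against 37.02 to 159.5 (-1.09). Syvn1, the ubiquitin ligase of ER-associated degradation, had 26.02 against 28.2 to 81.5 (-1.06). These values lie close to the limit, and they fell inside it when 1 library was left out, at -0.92 for Hyou1 and for Sdf2l1 without CT1 or CT21 and -0.996 for Syvn1 without CT13 or CT21. Without CT1 and CT17 together, Manf was at -0.99 and Sdf2l1 at -0.71. With total-count scaling, Manf (-0.97), Hyou1 (-0.95), Sdf2l1 (-0.82) and Syvn1 (-0.96) were under 2-fold, and all were still below the median. By that scaling Syvn1 was lower at CT17 (1397 of 54884254 counts) than at CT5 (1371 of 48288706), so its lowest rank at CT5 rests on TMM. Manf shares exon sequence with Rbm15b and Syvn1 with Mrpl49.

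The 6 genes of the ER list that were not lowest at CT5 were Calr and Pdia4, which were as low at CT13 or CT9, Herpud1, and Xbp1, Ddit3 and Atf6, of the stress signalling pathway itself. Of the list, 1 gene had its highest level of the 6 at CT5. Outside the list, 2 genes linked to secretion were also lowest there, named after their values were seen. Bhlha15, the gene of the secretory cell factor MIST1, had 3.12 CPM at CT1, 0.626 CPM at CT5, 1.34 CPM at CT9, 1.61 CPM at CT13, 2.28 CPM at CT17 and 2.33 CPM at CT21 (log2 ratio -1.86). Tmed3, a cargo receptor between ER and Golgi, had 52.4 CPM at CT1, 20.3 CPM at CT5, 27.4 CPM at CT9, 36.4 CPM at CT13, 43.5 CPM at CT17 and 42.2 CPM at CT21 (-1.06, and -0.845 without CT1 and CT17). Of 18 genes of the ATF4 branch, 12 passed the count minimum, 0 were lowest, and 1, the pseudokinase gene Trib3, was highest at CT5 (6.59 CPM against 1.01 to 3.196, log2 ratio 1.25).

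Cytosolic heat shock genes were also low at CT5, but on another schedule and at CT1 as well. The summed level of the list was 2548 CPM at CT1, 2843 CPM at CT5, 3607 CPM at CT9, 5961 CPM at CT13, 3377 CPM at CT17 and 4324 CPM at CT21. Of the 23 genes of this list, 0 were highest and 4 lowest at CT5 by the rule (0.847% of all genes), and the median log2 ratio was -0.44. Without CT1 and CT17 there were 7 and the median was -0.63, since 10 of the 23 had their lowest level at CT1 and 8 at CT5 (25.3% and 13.8% of all genes). The highest level was at CT13 for 14 of the 23, and for 22.1% of all genes. Hsph1, the HSP110 chaperone, had 28.2 CPM at CT1, 14.03 CPM at CT5, 51.4 CPM at CT9, 127 CPM at CT13, 21.7 CPM at CT17 and 57.5 CPM at CT21, with a log2 ratio of -1.87 (counting interval -1.995 to -1.75). Hsp90aa1, the inducible HSP90, had 295 CPM at CT1, 121 CPM at CT5, 194 CPM at CT9, 632 CPM at CT13, 382 CPM at CT17 and 379.8 CPM at CT21 and a log2 ratio of -1.65 (counting interval -1.69 to -1.61). Both had their trough at CT5 and their peak at CT13. Hspb1, the small heat shock protein HSP27, had 12.2 CPM at CT1, 9.49 CPM at CT5, 10.8 CPM at CT9, 32.9 CPM at CT13, 36.4 CPM at CT17 and 28.8 CPM at CT21 (log2 ratio -1.60), and its levels at CT5, CT9 and CT1 were close. Hspa4l had 17.01 CPM against 22.9 to 60.1 (log2 ratio -1.11), which was -0.84 without CT13 or CT21, -0.88 without CT17 and -0.84 with total-count scaling. Cirbp, which is raised by cold, was not low at CT5.

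**Figure D4:**
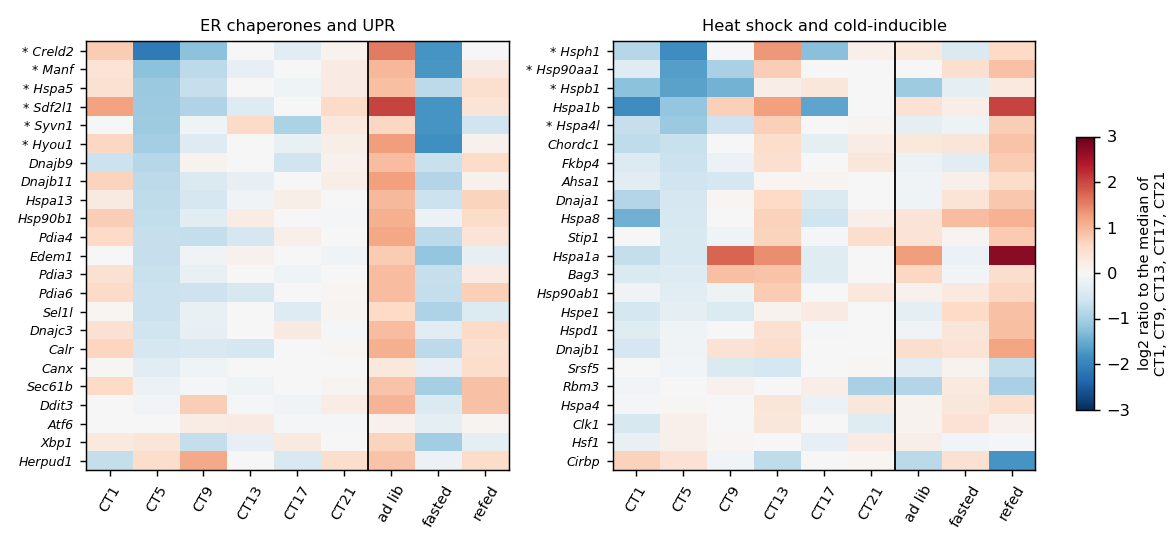
Log2 ratio of each gene's level in each library to its median over CT1, CT9, CT13, CT17 and CT21, from -3 (blue) to 3 (red, values beyond are shown at the limit), for 23 ER (left) and 23 heat shock (right) genes, ordered by the CT5 column; stars mark the 6 and 4 genes lowest at CT5 by the rule. In the left panel the CT5 column is blue for most genes and CT1 is red for many, while in the right panel CT13 is the red column of DD.

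Targets of glucocorticoids, the adrenal hormones that follow the activity cycle, included 5 genes lowest at CT5. Tat, tyrosine aminotransferase, had 654 CPM at CT1, 388 CPM at CT5, 1652 CPM at CT9, 1390.4 CPM at CT13, 1526 CPM at CT17 and 1055 CPM at CT21 and a log2 ratio of -1.84 (counting interval -1.86 to -1.82). Dusp1, a MAP kinase phosphatase, had 9.07 CPM at CT1, 6.72 CPM at CT5, 33.97 CPM at CT9, 20.4 CPM at CT13, 9.57 CPM at CT17 and 21.7 CPM at CT21 (-1.61). Zbtb16, a zinc finger factor, had 14.8 CPM at CT1, 8.98 CPM at CT5, 60.3 CPM at CT9, 31.7 CPM at CT13, 21.6 CPM at CT17 and 15.2 CPM at CT21 (-1.26). All 3 were highest at CT9, right after their trough, and had CT1 as the nearest library. Ddit4, an inhibitor of mTORC1, was instead level at the other 5 times, with 8.72 to 12.6 CPM against 3.15 at CT5 (log2 ratio -1.65 (counting interval -1.92 to -1.40)). Cdkn1a, the gene of p21, had 2.87 CPM at CT1, 0.664 CPM at CT5, 0.8202 CPM at CT9, 0.847 CPM at CT13, 1.86 CPM at CT17 and 2.25 CPM at CT21. Its log2 ratio of -1.48 was -0.35 without CT1 and CT17, so it rests on those libraries. Of the 18 targets at the count minimum, 0 were highest and 5 lowest by the rule (0.847% of all genes), 10 had their highest level at CT9 (15.6% of all genes), and the median log2 ratio was -0.72. That median was 0.03 without CT1 and CT17, where 5 genes, without Cdkn1a, were lowest by the rule. Whatever the fold, 6 of the 18 had their lowest level at CT5, 5 at CT13 and 4 at CT21 (13.8%, 16.6% and 8.05% of all genes). Their summed level was 3006 CPM at CT5 and lower still at CT21, with 2724 CPM.

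Genes of the fasting and feeding response were mixed at CT5. Igfbp1, the liver's secreted IGF-binding protein that insulin represses, had 36.3 CPM at CT1, 7.74 CPM at CT5, 8.07 CPM at CT9, 21.7 CPM at CT13, 59.5 CPM at CT17 and 39.8 CPM at CT21. It was equally low at CT9, and its log2 ratio of -2.23 (counting interval -2.38 to -2.07) was -1.49 without CT1 and CT17. Ppp1r3b, the subunit that brings protein phosphatase to glycogen, had 235 CPM at CT1, 159 CPM at CT5, 762 CPM at CT9, 678 CPM at CT13, 320.5 CPM at CT17 and 356 CPM at CT21 (log2 ratio -1.16, and -2.09 without CT1 and CT17). Sik1, a kinase that restrains gluconeogenesis, had 8.39 CPM at CT1, 8.09 CPM at CT5, 19.1 CPM at CT9, 21.8 CPM at CT13, 21.9 CPM at CT17 and 10.8 CPM at CT21, so that CT1 and CT5 were alike; the log2 ratio of -1.24 was -0.88 without CT13 or CT17. These were 3 of 17 genes of gluconeogenesis and glycogen, whose median was -0.16, against 0.847% of all genes that were lowest by the rule. Pdk4, a kinase that shuts off pyruvate oxidation, was the only 1 of 35 PPARA target genes that was taken, with 1.96 CPM against 4.47 to 20.7 (log2 ratio -1.67). The median log2 ratio of that list was 0.32, and 0.16 without CT1 and CT17. Whatever the fold, 13 of the 35 had their highest level at CT5 and 2 their lowest, against 13.4% and 13.8% of all genes. G6pc2, a paralog of glucose-6-phosphatase known from islets, had 0.228 CPM, 12 counts, against 0.8202 to 1.96 (log2 ratio -2.84 (counting interval -3.85 to -1.97)). Slc25a25, the mitochondrial carrier of ATP-Mg and phosphate, had 38.8 CPM at CT1, 34.6 CPM at CT5, 111 CPM at CT9, 313 CPM at CT13, 248 CPM at CT17 and 140.0 CPM at CT21. Its log2 ratio was -2.02 (counting interval -2.09 to -1.94) to the median and -0.17 to CT1.

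Gadd45g, a growth arrest and DNA damage gene, had one of the deepest troughs at CT5. Its level was 23.5 CPM at CT1, 2.11 CPM at CT5, 2.46 CPM at CT9, 24.9 CPM at CT13, 28.6 CPM at CT17 and 4.54 CPM at CT21. CT5, CT9 and CT21 formed the low points, and the log2 ratio was -3.48 (counting interval -3.77 to -3.20) to the median, -0.22 (-0.61 to 0.17) to CT9, -1.11 without CT1 and CT17, -2.80 without CT1 and -2.73 without CT13 or CT17. Its paralog Gadd45a, named after its value was seen, was highest at CT5 instead, with 13.8 CPM against 3.65 to 8.16 (log2 ratio 1.25). Among 19 immediate early genes at the count minimum, 3 were lowest and 3 highest at CT5, against 0.847% and 0.683% of all genes. Fos had 0.285 CPM against 0.8202 to 5.35 (log2 ratio -1.96), and Btg2, an antiproliferative gene, 8.35 against 16.9 to 43.4 (-1.50), in addition to Dusp1. The 3 highest were Klf10 (38.98 CPM against 9.28 to 27.4, log2 ratio 1.21), Klf4 (1.92 against 0.475 to 1.43, 1.14) and Maff. The median of the list was -0.08. Klf10 was at 0.84 without CT1 and CT17, and Klf4 at 0.95 without CT9 or CT17. The log2 ratio of Klf4 to its nearest library, CT1, was 0.42 (-0.021 to 0.865), so counting error alone does not set CT5 and CT1 apart.

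Other genes with large troughs at CT5 had few counts or close paralogs. Gm47283 had 0.342 CPM at CT5 and 0.885 to 5.45 elsewhere, with a log2 ratio of -2.33 (counting interval -3.15 to -1.58). Myom3, a sarcomere protein, had 0.247 against 0.385 to 4.14 (-2.19, and -1.12 without CT1 and CT17). Nat8f6 had 0.361 against 0.404 to 2.64 (-2.09), and its neighbour Nat8f5, named after its value was seen, had 13.7 against 17.4 to 56.6 (-1.33), and reads of this pair may be shared. Atg9b, of the autophagy machinery, had 0.285 against 0.481 to 1.87, and its log2 ratio of -1.997 was -0.86 without CT1 and CT17. For Myom3, Nat8f6 and Atg9b, counting error alone does not set CT5 apart from the nearest library. The histone gene H3c14, Fam222a, Fam83f, Abtb2 and Mkx had log2 ratios of -1.99, -1.99, -1.94, -1.50 and -1.38. Each of these 5 was 2-fold or more below its nearest library, from -1.84 for H3c14 to -1.22 for Mkx.

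Some genes lowest at CT5 were high at both CT1 and CT17, the libraries with high acute phase and neutrophil markers. Cxcl1, a chemokine that draws neutrophils, had 54.8 CPM at CT1, 1.99 CPM at CT5, 7.21 CPM at CT9, 2.23 CPM at CT13, 77.7 CPM at CT17 and 3.14 CPM at CT21 (log2 ratio -1.85). Prg4 had 56.3 CPM at CT1, 9.41 CPM at CT5, 24.1 CPM at CT9, 15.2 CPM at CT13, 68.7 CPM at CT17 and 9.45 CPM at CT21 (-1.35). Acnat2, an acyltransferase gene, had 67.6 CPM at CT1, 5.47 CPM at CT5, 11.2 CPM at CT9, 14.6 CPM at CT13, 79.9 CPM at CT17 and 11.2 CPM at CT21 (-1.42). Saa4, of the serum amyloid family, had 504 CPM at CT1, 153 CPM at CT5, 306 CPM at CT9, 256 CPM at CT13, 572 CPM at CT17 and 158 CPM at CT21 and lay at the limit with -1.004, which was -0.88 without CT1 or without CT17. Without both, the log2 ratios were -0.66 for Cxcl1, -0.69 for Prg4 and -0.74 for Saa4, all under 2-fold. Saa4 was the only 1 of 33 acute phase genes that was taken; their median log2 ratio was -0.50, and 0.08 without CT1 and CT17. Prg4, Acnat2 and Cxcl1 were named after their values were seen, and for this pattern, so that it is no separate result. The part of inflammation in these values was not tested.

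A few immune and cell cycle genes were higher at CT5. The MHC class II genes H2-Ab1 and H2-Eb1 had 33.1 CPM against 8.89 to 24.8 (log2 ratio 1.12 (counting interval 0.997 to 1.24)) and 34.9 against 10.5 to 24.9 (1.09 (counting interval 0.97 to 1.21)). H2-Aa, of the same complex, fell just short at 0.998. The B cell receptor gene Cd79b, named after its value was seen, had 2.31 CPM against 0.661 to 1.67 (1.03). The summed level of the 13 lymphocyte markers measured, of which Cd79b and Cd4 passed the count minimum, was 9.62 CPM at CT5 and 5.62 to 9.31 at the other times in DD. Cd4 was lowest of the 6 at CT5, with 1.25 CPM against 1.49 to 2.64. The summed level of red blood cell markers was also highest at CT5, with 643 CPM at CT5 and 420.2 to 550.0 elsewhere in DD. Of the 8 at the minimum the 6 globin genes were highest there, but these are 3 near-identical pairs with nearly equal counts, so that the sum holds each pair's reads 2 times. Alas2 was highest at CT21 instead, and Slc4a1 had a log2 ratio of -0.21. The part of these cells in the result was not tested. H2-Ab1 was at 0.95 without CT1 and CT17, and H2-Eb1 at 0.95 without CT9 or CT13.

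Of 24 cell cycle and DNA replication genes at the minimum, 3 were highest and 1 (Cdkn1a) lowest at CT5, against 0.683% and 0.847% of all genes. Whatever the fold, 8 of them had their highest level there, as did 13.4% of all genes, and the median log2 ratio was 0.14. Without CT1 and CT17, 2 were highest and 0 lowest by the rule. Mcm10, a replication factor, had 42.9 CPM at CT1, 127 CPM at CT5, 54.6 CPM at CT9, 99.3 CPM at CT13, 47.95 CPM at CT17 and 42.01 CPM at CT21 and a log2 ratio of 1.41 (counting interval 1.34 to 1.48). CT13 was its nearest library. Cdc20, an activator of the anaphase-promoting complex, had 1.94 CPM against 0.281 to 1.59 (log2 ratio 1.36, and 0.91 without CT1 and CT17). Its log2 ratio to the nearest library, CT21, was 0.29 (-0.127 to 0.700), so counting error alone does not set CT5 and CT21 apart. Ccne1, cyclin E1, had 3.38 against 0.866 to 2.36 (1.15, and 0.88 without CT13 or CT21).

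Single genes were taken from 7 further lists, and those given here are named for that reason. Abcg8, of the canalicular sterol pump, was highest at CT5, with 107 CPM and 100.2 at CT9 (log2 ratio 1.12). Gabarapl1, an autophagosome protein, was also highest, with 506 CPM against 200.1 to 369 (1.08, and 0.99 without CT1 and CT17). Esr1, the estrogen receptor, was lowest, with 14.8 CPM against 21.8 to 42.5 (-1.39), and Tfrc, the transferrin receptor, 25.9 against 28.3 to 71.6 (-1.17). Tat and Cxcl1, described above, were the single genes of the amino acid breakdown and chemokine lists.

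Broad housekeeping lists gave no genes by the rule. Of the 37 gene lists, 16 had no gene taken, and their medians ran from -0.30 to 0.22. These included 83 cytosolic ribosomal protein genes (median 0.03), 84 respiratory chain genes (0.03), 78 mitochondrial ribosomal protein genes (0.01) and 37 proteasome genes (-0.001). Cholesterol synthesis had the lowest of these medians (-0.30 over 20 genes, 7 of them lowest in rank at CT5), and drug-metabolizing enzymes the highest (0.22 over 32 genes).

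The limit of 2-fold separates genes of equal standing. Just inside it among the highest were Smad9 (1.003), Pcbp4 (1.007) and Prok1 (1.017), and just outside were Bach1 (0.999), H2-Aa (0.998) and Inhbe (0.996). Among the lowest, Olfr1034 (-1 at 3 decimals), Wnt5a (-1.002) and Saa4 (-1.004) were just inside, and Ppl (-0.999), Cad (-0.991) and Palld (-0.991) just outside. Without CT1 and CT17, Smad9 was at 0.26 and Wnt5a at -0.92. Each of the 6 inside was under 2-fold in at least 1 of the alternatives tried.

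The naming rule took 27 of the 79 and 39 of the 98. The other 52 highest genes had log2 ratios of 1.03 to 1.76, and the other 59 lowest genes of 1.01 to 1.89 in size. Among all members, 62 of the highest and 68 of the lowest were in none of the 37 lists. Under 300 counts in every one of the 6 libraries were 21 of the 79 and 26 of the 98. Some members were neighbours in the genome: 8 pairs overlapped or lay within 100 kb of each other, and both genes of each pair were taken in the same direction. Named for this reason alone or described above, they were H2-Ab1 and H2-Eb1, Cyp2c40 and Cyp2c69, Gbp10 and Gbp11, 3110082I17Rik and Gpr146, Olfr1033 and Olfr1034, Ptk6 and Srms, Nat8f6 and Nat8f5, and Marveld3 and Tat. Pairs this close among all genes were not counted, so no background share stands beside these 8. In at least 4 of the pairs the genes are close paralogs that may share reads (the Cyp2c, Gbp, Olfr and Nat8f pairs). Of those not described elsewhere, Olfr1033 (-0.89) and Marveld3 (-0.20) were under 2-fold without CT1 and CT17. Of the 177, 10 share exon sequence with a gene on the same strand and 34 with one on the opposite strand.

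The feeding libraries, which the rule did not use, gave a second view of the same genes. Both comparisons share the ad libitum library, in which acute phase genes took 27.6% of counts against 4.17% (fasted) and 5.72% (refed), and neutrophil markers 112 CPM against 9.13 and 7.37. The part of this in the values that follow was not tested, nor was that of harvest time. Of all 11571 genes, 6.31% were 2-fold or more higher and 8.47% lower in the fasted than in the ad libitum library. Of the 79 genes highest at CT5, 29 were higher (36.7%) and 10 lower (12.7%), and of the 98 lowest, 7 were higher (7.14%) and 42 lower (42.9%). Between refed and ad libitum, 6.01% of all genes were higher and 5.15% lower, against 33 (41.8%) and 4 (5.06%) of the 79 and 11 (11.2%) and 43 (43.9%) of the 98. The median log2 ratios in the fasted library were 0.65 for the highest and -0.81 for the lowest genes (all genes, -0.09), and in the refed library 0.74 and -0.58 (all genes, -0.02).

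**Figure D5:**
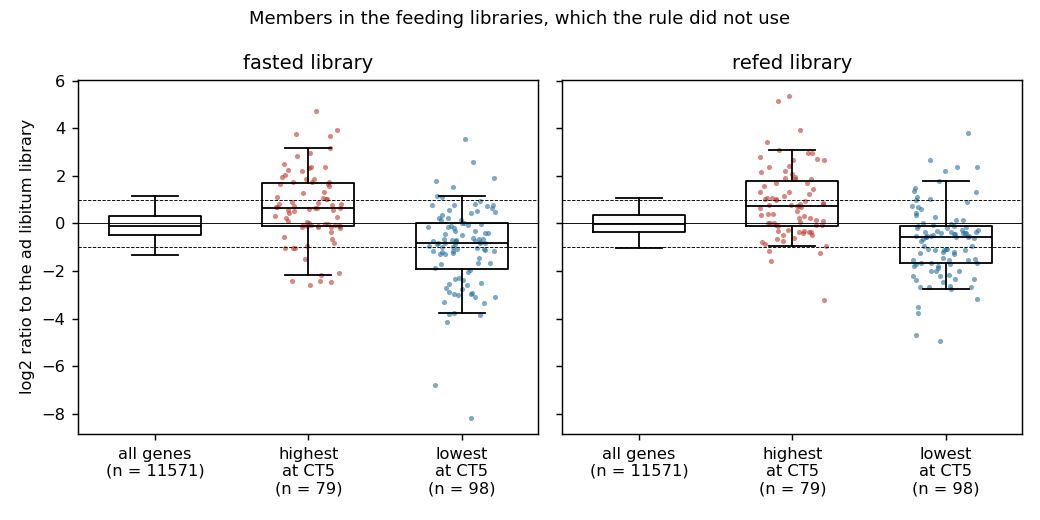
Log2 ratio of the fasted (left) and refed (right) library to the ad libitum library for all 11571 genes and for the genes highest (red) and lowest (blue) at CT5; boxes show quartiles and median, whiskers the central 90%, points single genes, and dashed lines 2-fold. The medians of the genes highest at CT5 lie above 0 (0.65 and 0.74) and those of the lowest below (-0.81 and -0.58).

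The clock genes differed most in the refed library. Dbp had 0.949 CPM in the ad libitum, 5.32 in the fasted and 33.9 in the refed library. Nr1d1 had 1.53, 5.12 and 13.1 CPM, Nr1d2 8.601, 61.1 and 129.7, and Arntl 24.8, 18.9 and 5.37. In all 4, the refed library was the nearest of the 3 to the level at CT5. For Rgs16 the 3 values were 2.19, 3.37 and 9.305 CPM, far under its 68.95 CPM at CT5.

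ER chaperones differed most in the fasted library instead. Creld2 had 334 CPM in the ad libitum, 33.3 in the fasted and 115 in the refed library, Hspa5 3867, 1214 and 2911, and Hyou1 953, 112 and 440.4. All 6 ER genes lowest at CT5 were lower in the fasted than in the ad libitum library, with log2 ratios of -3.78 (Sdf2l1) to -1.67 (Hspa5), and Hyou1, Manf, Sdf2l1 and Syvn1 were below their CT5 level there. Of the heat shock genes, Hsp90aa1 was lowest in the ad libitum and Hsph1 in the fasted library: Hsp90aa1 had 377, 534 and 704 CPM and Hsph1 63.7, 38.2 and 77.8. Igfbp1 and Pdk4, low at CT5, were high after the fast, at 624 CPM against 286 and 71.4 against 6.005.

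The CT5 level itself was rarely passed by the highest genes, and more often by the lowest. None of the 79 reached it in the ad libitum library, 8 did in the fasted and 3 in the refed one (Cyp2c69, Cyp2c40 and Serpinb1a, at 0.11, 0.17 and 0.94 without CT1 and CT17). Of the 98, 5 were as low in the ad libitum, 24 in the fasted and 7 in the refed library, among them Cdkn1a and Pnrc1 (-0.84 without CT1 and CT17) after refeeding. Pnrc1 and the 3 genes named before it were chosen after their values were seen. Relative to CT5, the 79 had median log2 ratios of -1.97, -1.35 and -1.40 in the ad libitum, fasted and refed libraries, and the 98 of 1.87, 0.69 and 1.15.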

How the data were processed

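RNA-seq of pooled mouse livers gave 9 libraries, 1 per condition. Per the submitters' processing notes reads were aligned with TopHat2 2.0.13 to GRCm38/mm10; which program counted them, and whether by strand, is not given in the sources used here. Whole-number counts were deposited by the authors for 27457 RefSeq transcripts per library. Transcripts were named from RefSeq (26390), GENCODE (115) and the study's tables (12); 940 unnamed ones, with 0.335% to 0.798% of counts, were left out. Of several transcripts of one gene (3737 of 20418 genes) that with most counts was kept. Scaling was by TMM over 9 libraries (edgeR 4.0.16, R 4.3.3; Python 3.11.15, scipy 1.17.1). Genes needed 100 counts in 1 of the 6 DD libraries; a library at 0 was set at 3 counts for ratios. Ratio intervals are exact conditional binomial, level intervals exact Poisson (95%). The rule was tested on simulated data.

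The members, the gene lists and the marker lists were chosen with earlier results of these data known. Named are the 15 largest ratios in each direction, the 10 in each direction farthest from the nearest library, up to 6 members of each list with several members, every core clock and clock output gene, and 3 genes on each side of the limit; others are marked as named after their values were seen or as single genes of a list. Some genes that the rule names are not reported here. The fasted and refed libraries were set against ad libitum and not, as first planned, with the DD median, which the rule uses. Scaling (TMM over 6, DESeq2 1.42.0, total counts), the count minimum, the choice of transcript, the reference and the libraries used were varied.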

Additional observations from a re-analysis of the deposited data

How the results depend on the processing

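The counts of 79 highest and 98 lowest genes at CT5 depended most on the count minimum and the reference. A minimum of 10 counts gave 213 and 284, no minimum 329 and 333, and 2-fold from the nearest library 14 and 17. Leaving out 1 of the other DD libraries gave 65 to 101 highest and 105 to 136 lowest genes. The other alternatives stayed within 1.5 times of both counts. Of 66 named members, 22 were under 2-fold in 1 or more of 11 settings and 0 changed sign. The cause of these shifts was not tested. The depth limits genes of few counts, where intervals are wide. With 1 library per condition, intervals leave out the spread between mice. No paired analysis was possible because each condition has 1 library.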
